A study of Cucumis sativus with 4 samples.

Results

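JAZ proteins are the repressors of jasmonate signalling. In the textbook pathway from Arabidopsis, a JAZ protein holds MYC2 and related transcription factors inactive with the adaptor NINJA and the corepressor TPL. Jasmonoyl-isoleucine, the active hormone made by JAR1, binds JAZ to the F-box receptor COI1, JAZ is degraded and the factors are freed. JAZ genes are themselves among the targets of these factors, so their transcripts are often read together with the state of the pathway in wounded or stressed leaves and roots.

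The 8 genes described here are the rows of a deposited expression table of 18665 cucumber genes whose listed Arabidopsis homologue was 1 of 9 JAZ genes. Of these 9 homologue IDs, 5 had rows and 3 of the 5 had 2 rows each; JAZ4 (AT1G48500), JAZ6 (AT1G72450), JAZ11 (AT3G43440) and JAZ12 (AT5G20900) were not analysed here. The 8 genes were TIFY10A (JAZ1, AT1G19180, Cucsa.141940), TIFY10B (JAZ2, AT1G74950, Cucsa.360080), TIFY6B (JAZ3, AT3G17860) on scaffold00399 (Cucsa.029920) and on scaffold00999 (Cucsa.122030), TIFY9 (JAZ10, AT5G13220) on scaffold00919 (Cucsa.095580) and on scaffold03487 (Cucsa.349280), and TIFY5A (JAZ8, AT1G30135) on scaffold00542 (Cucsa.047800) and on scaffold00585 (Cucsa.054580). TIFY is the name of the larger family that shares the domain through which Arabidopsis JAZ proteins meet NINJA. Positions on a scaffold were not given, and the symbols are those of the listed homologues, so each copy is called by its symbol and scaffold.

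The plants were cucumber (Cucumis sativus), 28 days after sowing, grown in sand. Control plants received 5 mM nitrogen, all as nitrate, and low nitrogen plants 1 mM. Root and leaf were each taken from control and low nitrogen plants, giving 4 libraries with 1 in each group, so differences could not be checked against replicates and were not tested. How many plants gave each library is not stated in the labels. By the recipes in the labels, the low nitrogen solution also held more sulfate (1.45 against 0.25 mM) and more chloride (1.8 against 0.2 mM), and these cannot be told apart from the nitrogen supply.

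Levels are RPKM, reads scaled to gene length and library depth, as the authors deposited them, and depths are in mega reads (M). The depth behind them, recovered from the steps between values, was 4.23 M reads in root control, 3.98 M in root low nitrogen, and 2.93 M and 2.74 M in the corresponding leaf libraries. Whole read counts could be recovered for 6 of the 8 genes, and intervals given for these are exact 95% intervals that cover counting error only. Summed marker levels followed the organ labels. The summed level of 6 photosynthesis genes was 55.3 and 45.8 RPKM in the root libraries and 20171 and 11438 RPKM in the leaf libraries. That of 8 root cell type genes was 137 and 95.8 RPKM in root and 7.06 and 9.49 RPKM in leaf. Of these 8, RHD6, a root hair factor, was listed at 0 in both leaf libraries, and 5 in control and 3 in low nitrogen leaf were at 0. Not every root marker followed its sum. Of the 5 compared between organs on full nitrogen, 4 were lower in leaf by the threshold given below. The remaining 1 was above 0, at a log2 ratio of leaf to root of 0.84. In bulk tissue, fewer cells of a type and less RNA per cell cannot be told apart.

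Each of the 8 JAZ homologues was detected in both root libraries, and TIFY6B (scaffold00399) was the highest of the 8 in each of the 4 libraries. The summed level of the 8 genes was 166 (control) and 195 RPKM (low nitrogen) in root, and 200.3 and 230.01 RPKM in leaf. The sum was therefore 1.18-fold higher in low nitrogen root and 1.15-fold higher in low nitrogen leaf than in the control of the same organ, while the shares of single genes in it differed more. Median ratio and upper quartile scaling turned the leaf direction of the sum, to ratios of 0.846 and 0.895. The TIFY6B copies together held 33.3% of the sum in control and 35.9% in low nitrogen root, and 70.4% in control and 67.7% in low nitrogen leaf. TIFY10A held 26.8% and 30.7% in the root libraries and 4.33% and 3.44% in the leaf libraries. The TIFY9 copies held 18.4% in control and 6.79% in low nitrogen root, and 16.7% in control and 22.8% in low nitrogen leaf.

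**Figure D1:**
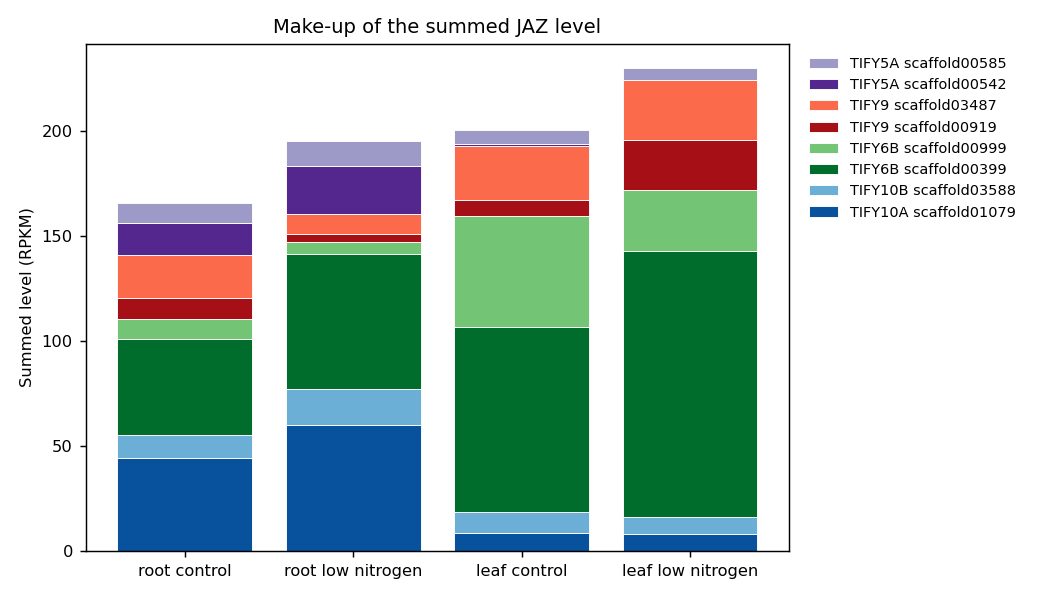
Summed level (RPKM, vertical axis) of the 8 JAZ homologues in each of the 4 libraries, with each gene's part of the sum as a coloured segment. The TIFY6B segments (green) make up 70.4% of the bar in leaf control and 33.3% in root control, and the TIFY10A segment (dark blue) shrinks from 26.8% to 4.33% between these libraries.

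TIFY6B is the homologue of JAZ3, one of the repressors through which the family was first recognised in Arabidopsis. The copy on scaffold00399 was at 45.6 (control) and 64.6 RPKM (low nitrogen) in root, and 88.6 and 127 RPKM in leaf. As deposited, low nitrogen was 1.42-fold above control in root (interval 1.24 to 1.63) and 1.43-fold in leaf (1.27 to 1.61). The leaf part rests on the deposited scaling: the interval was 0.938 to 1.19 after median ratio scaling and 0.992 to 1.26 after upper quartile scaling, both including 1. In neither organ did the log2 ratio, 0.49 in root and 0.51 in leaf, reach the threshold of 1 used below.

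The TIFY6B copy on scaffold00999 went the other way. It was at 9.63 (control) and 5.47 RPKM (low nitrogen) in root, and 52.5 and 28.9 RPKM in leaf. It was 1.76-fold lower in low nitrogen root (interval 1.18 to 2.67) and 1.81-fold lower in low nitrogen leaf (1.48 to 2.24). This copy was mainly a leaf transcript, 5.45-fold higher in leaf than in root on full nitrogen (interval 4.20 to 7.16) and 5.29-fold on low nitrogen (3.69 to 7.75). The size of the full nitrogen ratio rests on the scaling. It was 8.54 after median ratio, 7.89 after upper quartile and 4.80 after equal sums scaling.

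TIFY9 is the homologue of JAZ10, whose transcript in Arabidopsis also gives splice forms that resist degradation. The copy on scaffold00919 was at 10.04 (control) and 3.68 RPKM (low nitrogen) in root, and 7.99 and 24.1 RPKM in leaf. It was the lowest of the 8 genes in low nitrogen root and the fourth highest in low nitrogen leaf. Low nitrogen root was 2.73-fold below control (interval 1.29 to 6.27) and low nitrogen leaf 3.01-fold above control (1.67 to 5.71), on recovered counts of 29 and 10 reads in root and 16 and 45 in leaf.

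The TIFY9 copy on scaffold03487 was at 20.4 (control) and 9.60 RPKM (low nitrogen) in root, and 25.5 and 28.5 RPKM in leaf. It shared the lower value in low nitrogen root, 2.13-fold below control, but its leaf values lay close together, with a ratio of 1.12. No whole counts were recovered for this gene, so these ratios have no interval.

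TIFY10A, the homologue of JAZ1, was the leading root gene of the 8 beside TIFY6B (scaffold00399). It was at 44.4 (control) and 60.0 RPKM (low nitrogen) in root, and 8.68 and 7.92 RPKM in leaf. Root exceeded leaf 5.11-fold on full nitrogen (interval 3.41 to 7.95) and 7.57-fold on low nitrogen (4.93 to 12.2). The full nitrogen value, as a ratio of leaf over root, was 0.196 as deposited. It was 0.306 after median ratio, 0.283 after upper quartile and 0.172 after equal sums scaling. Within root, low nitrogen was 1.35-fold above control (interval 1.12 to 1.64), and within leaf the interval of the ratio, 0.500 to 1.65, included 1.

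TIFY10B, the homologue of JAZ2, was at 10.9 (control) and 17.1 RPKM (low nitrogen) in root, and 9.65 and 8.27 RPKM in leaf. Its low nitrogen root value was 1.57-fold the control value, the largest such ratio among the 8 genes, and its leaf ratio was 0.857. It has no counting interval.

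TIFY5A is the homologue of JAZ8, an Arabidopsis repressor that lacks the usual degradation signal and binds TPL without NINJA. The copy on scaffold00542 was at 15.3 RPKM in root control, 23.0 in root low nitrogen and 0.92 in leaf control, and was listed at 0 in leaf low nitrogen. It was thus a root transcript: leaf control rested on 1 read and was 16.6-fold below root control (interval 2.71 to 684.5), and on low nitrogen the exact lower limit of the root over leaf ratio was 6.01. The copy on scaffold00585 was at 9.53, 12.07, 6.54 and 5.61 RPKM in the same order of libraries. As deposited, none of its 4 ratios had an interval that left out 1, so no difference was detectable at its depth of 8 to 25 reads per library. With equal library sums the interval of leaf against root on low nitrogen was 0.163 to 0.956.

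**Figure D2:**
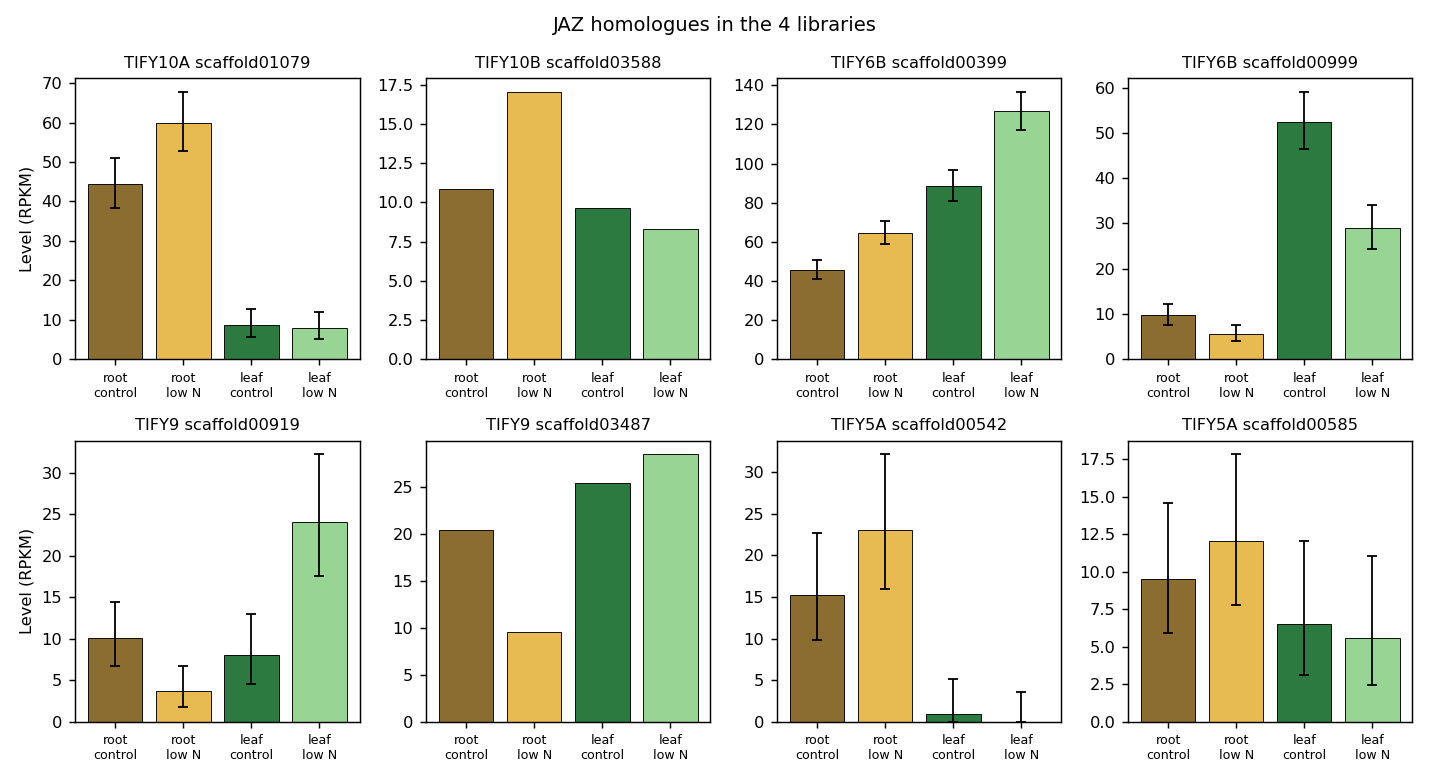
Level (RPKM, vertical axis) of each JAZ homologue in the 4 libraries, 1 bar per library, each panel with its own scale from 0. Lines are exact 95% counting intervals for the 6 genes with recovered reads; TIFY10A and TIFY5A (scaffold00542) are high in root, both TIFY6B copies are high in leaf, and TIFY9 (scaffold00919) is low in low nitrogen root and high in low nitrogen leaf.

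The order of levels among the 8 genes was only partly resolved. In root control TIFY6B (scaffold00399) and TIFY10A led at 45.6 and 44.4 RPKM with overlapping intervals, and they overlapped again in root low nitrogen at 64.6 and 60.0. TIFY10A stood apart from the next gene there, TIFY5A (scaffold00542). In leaf control TIFY6B (scaffold00399) at 88.6 stood apart from TIFY6B (scaffold00999) at 52.5, and in leaf low nitrogen these were at 127 and 28.9, again apart. All other neighbours in the 4 orders either overlapped or included a gene without an interval. The medians of the 8 genes, 13.1 and 14.6 RPKM in control and low nitrogen root and 9.17 and 16.2 RPKM in the leaf libraries, lay above those of all genes listed above 0, which were 7.96, 8.37, 5.90 and 7.39 RPKM.

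The first comparison the design implies is low nitrogen against control root. Ratios were taken as log2((A + 1)/(B + 1)) of RPKM, which understates the ratios of low genes. Genes averaging under 1 RPKM in the libraries of a comparison were left out, and the threshold for higher or lower was a log2 ratio of 1 or more in size. Both TIFY9 copies were lower, at -1.24 on scaffold00919 and -1.01 on scaffold03487, and no JAZ homologue was higher. Among all 14532 genes compared in root, 4.34% were lower and 6.17% higher, 10.5% in all, and the median log2 ratio was 0.04. The remaining gene below 0 was TIFY6B (scaffold00999) at -0.72. The other 5 genes lay between 0.31 for TIFY5A (scaffold00585) and 0.61 for TIFY10B, and the median of the 8 was 0.37. With a pseudocount of 5 neither TIFY9 copy passed the threshold (-0.79 and -0.80), and with equal library sums the copy on scaffold03487 was at -0.99.

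In leaf, 7 of the 8 genes were compared, since TIFY5A (scaffold00542) was below the minimum. TIFY9 (scaffold00919) was higher, at 1.48, and no gene was lower. Among all 13384 genes compared, 13.6% were higher and 3.59% lower, 17.2% in all; median ratio scaling changed this split to 5.97% and 9.05%, and upper quartile scaling to 7% and 7.65%. Across all genes the leaf log2 ratios had a median of 0.33, so values relative to it are given as well. The 7 genes had a median of -0.12, which is -0.45 relative to all genes. Relative to that median TIFY9 (scaffold00919) stood at 1.15, TIFY6B (scaffold00399) at 0.18, and TIFY6B (scaffold00999) at -1.17, past the threshold on the low side. TIFY10A at -0.12, TIFY10B at -0.20 and TIFY5A (scaffold00585) at -0.19 as deposited lay close together. Leaf photosynthesis markers moved with the treatment too: their summed level is given above, 3 of 6 were lower and 0 higher, and the summed level of 10 phloem genes was 507 RPKM in leaf without and 103 with low nitrogen, where 3 and 2 of them were at 0. Most of these 10 phloem genes are copies of the lectin PP2-A1. Of the 6 compared in leaf, 2 were lower, 0 higher and 4 neither. In root the phloem sum was 712 and 563 RPKM, with 2 of 9 genes lower and 0 higher. The part of these shifts in the JAZ values was not tested.

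The difference between the organs was taken as the leaf log2 ratio minus the root log2 ratio. It was 2.72 for TIFY9 (scaffold00919) and 1.17 for TIFY9 (scaffold03487), both past the threshold on the high side as deposited, and -1.50 for TIFY5A (scaffold00542) on the low side. Of all 14975 genes, 16.5% passed on the high side and 7.03% on the low side, 23.6% in all, and 9.17% and 11.9% did so after median ratio scaling and 10.5% and 10.6% after upper quartile scaling. TIFY9 (scaffold00919) had the 81st highest difference of all these genes. It was past the threshold in both organs with opposite signs, 1 of 78 such genes, or 0.521% of those compared. The value for TIFY5A (scaffold00542) rests on 1 leaf read, and its low nitrogen ratio in leaf, -0.94 as fitted with the pseudocount, is no bound. For TIFY9 (scaffold03487) the leaf log2 ratio of 0.15 turned to between -0.27 and -0.18 under median ratio scaling, upper quartile scaling and relative to the median of all genes, and its difference was then 0.78 to 0.90. The other 5 genes lay between -0.81 for TIFY10B and 0.02 for TIFY6B (scaffold00399).

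**Figure D3:**
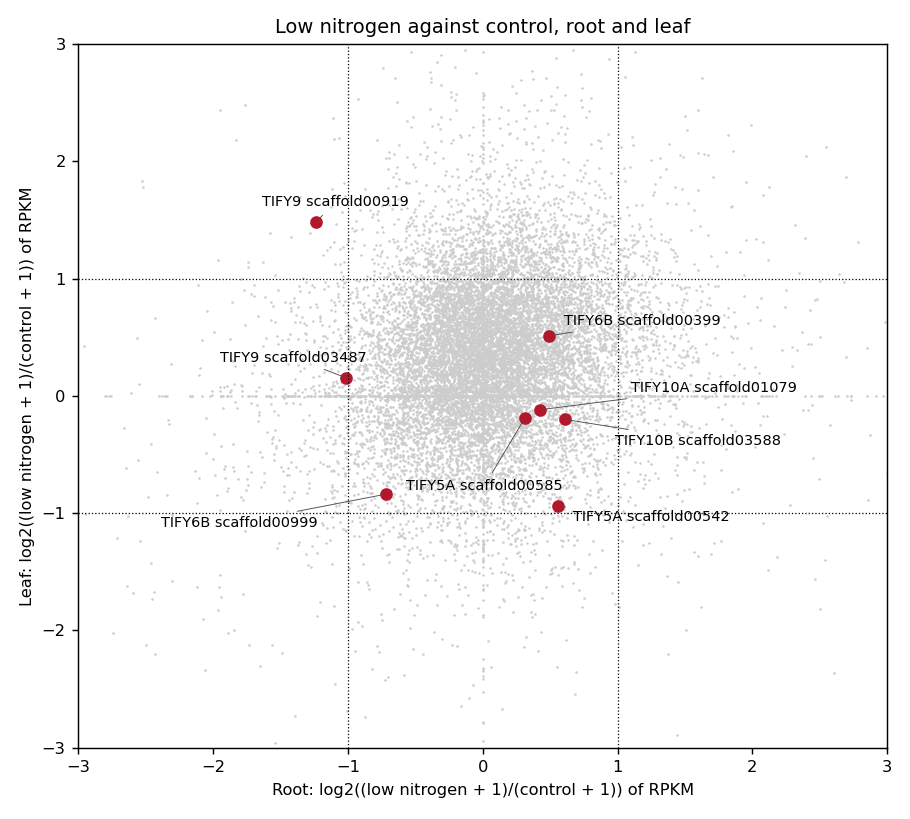
Log2 ratio of low nitrogen to control in root (horizontal axis) and leaf (vertical axis), computed on RPKM + 1, for 14975 genes (grey) with the 8 JAZ homologues in red and the threshold as dotted lines. TIFY9 (scaffold00919) is the only one of the 8 past both dotted lines in the upper left, at -1.24 and 1.48; 79 genes lie beyond the axes.

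Between organs, on full nitrogen, TIFY6B (scaffold00999) was higher in leaf at a log2 ratio of 2.33, and TIFY10A at -2.23 and TIFY5A (scaffold00542) at -3.08 were lower. Of 14711 genes compared, 17.6% were higher in leaf and 40.4% lower, 58% in all, and median ratio scaling gave 25.5% and 27.3%, upper quartile scaling 23.8% and 29.2%. Among the JAZ homologues 3 of 8 were past the threshold. On low nitrogen TIFY9 (scaffold00919) at 2.42, TIFY6B (scaffold00999) at 2.21 and TIFY9 (scaffold03487) at 1.48 were higher in leaf, against 20% of 15057 genes, and TIFY10A at -2.77 and TIFY5A (scaffold00542) at -4.58 were lower, against 31.2%, with 51.2% of all genes past the threshold. The -4.58 depends on the pseudocount, since the gene was listed at 0 in that leaf library, and was -7.85 with 0.1 and -2.48 with 5. TIFY6B (scaffold00399), at 0.96 as deposited, was at 1.19 to 1.26 under median ratio scaling, upper quartile scaling and relative to the median of all genes. On full nitrogen the TIFY9 copies had been at -0.30 and 0.31. These comparisons share libraries with those above and are not independent of them.

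Copies of one homologue did not keep a fixed balance. The TIFY6B copy on scaffold00399 made up 82.6% (control) and 92.2% (low nitrogen) of the pair's summed RPKM in root, and 62.8% and 81.4% in leaf. The log2 ratios of these copies to low nitrogen differed by 1.21 in root and 1.35 in leaf. Such a gap of at least 1 was seen in 19.8% of 1480 pairs of copies in root and 24.9% in leaf, over all homologues with exactly 2 rows and both at a mean of at least 1 RPKM. The TIFY9 copy on scaffold00919 made up 33.0% of its pair in control and 27.7% in low nitrogen root, and 23.9% in control and 45.8% in low nitrogen leaf, with gaps of -0.22 in root and 1.33 in leaf. The TIFY5A copy on scaffold00542 made up 61.6% and 65.6% of its pair in the root libraries and 12.3% and 0% in the leaf libraries. Between organs the TIFY5A copies differed by -2.60 in log2 ratio on full nitrogen and -3.60 on low nitrogen, and the TIFY6B copies by -1.39 and -1.25, while gaps of at least 1 were seen in 61.8% and 60.6% of all pairs. The treatment of reads matching both copies is not stated in the labels, so values of a pair may share reads.

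**Figure D4:**
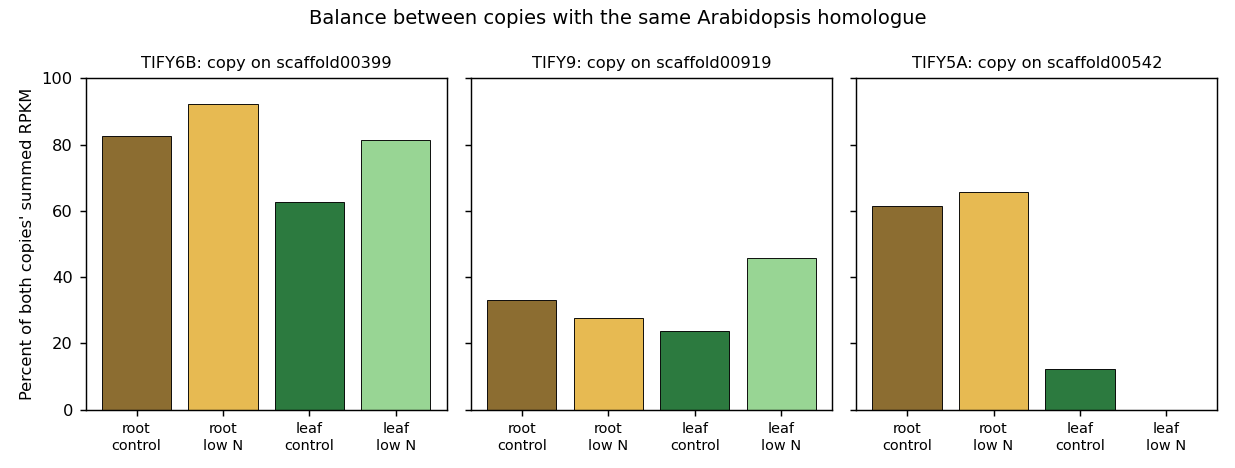
Share (percent, vertical axis) of 1 copy in the summed RPKM of both copies with the same Arabidopsis homologue, in the 4 libraries. The TIFY6B copy on scaffold00399 holds the larger share throughout (62.8% to 92.2%), and the TIFY5A copy on scaffold00542 holds 61.6% and 65.6% in root and 12.3% and 0% in leaf.

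The genes with patterns most like the most variable members were found by the Euclidean distance of log2(RPKM + 1), centred on each gene's mean over the 4 libraries, among 4558 genes with a symbol and a mean of at least 5 RPKM. Nearest to TIFY5A (scaffold00542) was NIC1 (AT2G22570, scaffold00927), of nicotinamide salvage, at a distance of 0.23. RHS19 (AT5G67400, scaffold00927), named for root hairs, followed at 0.30 and CYP94C1 (AT2G27690, scaffold01365), an oxidase of jasmonoyl-isoleucine, at 0.32. HSA32 (AT4G21320) at 0.36 and PLA-I{gamma}1 (AT1G06800), a lipase, at 0.37 completed the 5. Nearest to TIFY6B (scaffold00999) were SSI2 (AT2G43710), a stearoyl carrier protein desaturase, at 0.25, CHUP1 (AT3G25690, scaffold02653), of chloroplast positioning, at 0.32, APT3 (AT4G22570) at 0.33, ROPGEF12 (AT1G79860) at 0.34 and APX3 (AT4G35000, scaffold03678), an ascorbate peroxidase, at 0.35. None of the other JAZ homologues among the 8 was near either gene. The nearest of them were TIFY10A, the 333rd gene by distance from TIFY5A (scaffold00542), and TIFY9 (scaffold03487), the 529th from TIFY6B (scaffold00999). With 4 libraries these distances are a description.

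Homologues of JAZ genes outside the rule add a pair of rows. TIFY11A (JAZ5, AT1G17380), at 54.3 (control) and 78.6 RPKM (low nitrogen) in root, and 12.8 and 12.7 RPKM in leaf, had the root-rich profile of TIFY10A. It was 1.45-fold higher in low nitrogen than in control root (interval 1.25 to 1.67). In both root libraries its level lay above that of each of the 8 genes, the highest being TIFY6B (scaffold00399) at 45.6 and 64.6 RPKM. The counting intervals of TIFY11A and TIFY6B (scaffold00399) overlapped in control root and were apart in low nitrogen root. TIFY5B (JAZ7, AT2G34600), on the same scaffold as a TIFY5A copy, was listed at 0 in both control libraries and at 1.21 and 1.17 RPKM in low nitrogen root and leaf, on 3 and 2 reads.

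Jasmonate synthesis begins with lipoxygenases and allene oxide synthase in the plastid and ends with beta-oxidation in the peroxisome. In root, 0 of 20 compared genes of the synthesis list were higher and 0 lower, with a median of 0.01. Of all genes, 6.17% were higher and 4.34% lower. The 3 with the largest root ratios included an allene oxide cyclase, AOC4 (AT1G13280, scaffold02207), at 2.05 and 4.63 RPKM in control and low nitrogen root. Its ratio had an interval of 0.924 to 6.05, which included 1. An allene oxide synthase copy, DDE2 (AT5G42650, Cucsa.220270), was at 14.4 and 7.59 (interval of the fold decrease 1.35 to 2.70). A LOX6 homologue (AT1G67560) was at 8.67 and 4.69 (1.33 to 2.60). The remaining DDE2 copies were also below their control values in root, without reaching the threshold. Cucsa.220260 was at 22.5 and 13.5 RPKM (1.29 to 2.15), and the copy on scaffold01989 at 4.12 and 2.19 (0.981 to 3.76). In leaf, 1 of 16 was higher and 1 lower, against 13.6% and 3.59% of all genes. The higher one, a LOX2 copy (AT3G45140, Cucsa.153610), was at 0.49 and 3.31 RPKM in control and low nitrogen leaf (ratio 6.76, interval 2.31 to 26.5). The lower one, the ligase OPCL1 (AT1G20510, scaffold02978), was at 2.08 and 0.40 (5.20-fold lower, interval 1.12 to 47.7). AOC4 on scaffold02023 was at 17.5 and 27.04 RPKM in leaf. Another LOX2 copy (Cucsa.153620) was far more abundant in root, at 345 (control) and 581 RPKM (low nitrogen), a log2 ratio of 0.75. In leaf it was at 0.13 and 0 RPKM.

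Among genes of jasmonate conjugation and turnover, 0 of 11 passed the threshold in either direction in root and 0 of 8 in leaf. Of all genes, 10.5% did so in root and 17.2% in leaf. JAR1 (AT2G46370), which makes the active conjugate, was at 60.9 (control) and 48.05 RPKM (low nitrogen) in root, and 12.8 and 11.1 RPKM in leaf. A homologue of the jasmonate oxidase JOX2 (AT5G05600, scaffold00953) was at 14.5 and 23.9 RPKM in root and at 0.70 and 0 in leaf, and CYP94C1 (scaffold01365) was at 15.5 and 19.5 in root and at 0.49 and 0 in leaf. Both were thus root transcripts with leaf values near 0, as was TIFY5A (scaffold00542). In leaf the largest ratio belonged to another JOX2 homologue, on scaffold03639 (Cucsa.368520), at 8.45 and 5.86 RPKM. Next came the hydrolase JR3 (IAR3, AT1G51760, scaffold02698), at 11.9 and 16.2, and the oxidase CYP94B1 (AT5G63450, scaffold03368), at 7.81 and 10.09.

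COI1 (AT2G39940), the receptor, was at 40.2 (control) and 43.7 RPKM (low nitrogen) in root, and 17.5 and 17.8 RPKM in leaf. Of the genes of its ubiquitin ligase, 0 of 7 in root and 0 of 6 in leaf passed the threshold, with medians of 0.41 and 0.46. The shares of all genes past it were 10.5% in root and 17.2% in leaf. The scaffold subunit CUL1 (AT4G02570, scaffold02229) was at 2.42 and 4.35 RPKM in root and 2.41 and 4.89 in leaf, and its second copy (scaffold01196) at 21.8 and 32.3 in leaf. The linker SKP1B (AT5G42190, scaffold03678) was at 137 and 205 RPKM in root, the RING subunit ROC1 (RBX1, AT5G20570) at 115 and 167, and a second SKP1B copy (scaffold02978) at 11.2 and 20.6 in leaf.

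Among corepressors, 0 of 8 genes passed in root, against 10.5% of all genes, and 2 of 8 were higher in leaf, against 13.6%. Relative to the leaf median of all genes 1 of 8 was higher, TPL, against 5.91%. TPL, listed as WSIP1 (AT1G15750, scaffold00919), was at 53.3 (control) and 101 RPKM (low nitrogen) in root, and 12.9 and 39.1 RPKM in leaf. Its leaf ratio was 3.03 (interval 2.41 to 3.85) and its root ratio 1.90 (1.72 to 2.11), a log2 value of 0.92. The histone deacetylase HDA19, listed as RPD3A (AT4G38130, scaffold00926), was at 9.69 and 22.3 RPKM in leaf, a log2 ratio of 1.13 as deposited and 0.80 relative to that median. NINJA (AT4G28910) had 3 rows, the highest of them on scaffold02331 at 56.5, 68.5, 21.5 and 38.9 RPKM, root before leaf and control before low nitrogen. The row on scaffold00995 was at 9.74, 10.7, 9.53 and 13.1 RPKM, and that on scaffold02259 at 1.35 RPKM or less. TPR3 (AT5G27030) at 12.5 and 9.66 RPKM and WSIP2 (TPR4, AT3G15880) at 11.8 and 8.72 in root, both relatives of TPL, lay on the other side of 0.

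Among the transcription factors that JAZ proteins hold and their coactivator, 1 of 6 genes was higher and 1 lower in root. Of all genes, 6.17% were higher and 4.34% lower there. In leaf 0 of 6 passed, against 17.2% of all genes. Relative to the leaf median of all genes 1 of 6 was lower, the JAM2 homologue at -1.11, against 7.51%. The main MYC2 homologue, listed as ZBF1 (AT1G32640, scaffold02995), was at 66.7 (control) and 141 RPKM (low nitrogen) in root, and 70.3 and 83.5 RPKM in leaf. It was 2.12-fold higher in low nitrogen root (interval 1.90 to 2.36). In the same comparison both TIFY9 copies were lower, while 5 of the 8 JAZ homologues had log2 ratios above 0. The lower row was a second MYC2 homologue (scaffold01227) at 3.07 and 0.93 RPKM in root, with an interval of the fold decrease from 0.627 to 32.5, and the remaining one (scaffold00998) was above 0 in leaf low nitrogen alone, at 1.81 RPKM. The MYC4 homologue (AT4G17880) was at 47.5 and 46.2 RPKM in root and 16.6 and 28.6 in leaf. PFT1 (MED25, AT1G25540), a mediator subunit, was at 27.5 and 15.8 in root and 4.50 and 7.43 in leaf, and the JAM2 homologue (AT1G01260), of a group that opposes MYC2 in Arabidopsis, at 22.4 and 12.6 in leaf.

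Of the 12 homologue IDs on the list of response genes, 4 had rows, giving 11 genes, all copies of ERF1, NAC3, PR4 or PR3. These genes showed both directions in root, with 2 of 9 higher and 4 lower, against 6.17% and 4.34% of all genes. In leaf 1 of 6 was higher and 0 lower, against 13.6% and 3.59% of all genes. ERF1 (AT3G23240, scaffold00581), a factor of joint ethylene and jasmonate responses, was at 7.30 and 47.4 RPKM in root (ratio 6.49, interval 4.37 to 9.97) and 1.82 and 11.3 in leaf (6.20, interval 2.38 to 20.6). A second ERF1 copy (scaffold03967) was at 0.38 and 2.81 RPKM in root. PR4 (AT3G04720, Cucsa.133220), a chitin-binding defence protein, was at 22.9 and 3.65 RPKM in root, 6.26-fold lower (interval 1.86 to 32.9). The remaining 3 lower genes in root were copies of the basic chitinase PR3 (AT3G12500) on scaffold00542, with log2 ratios from -1.22 (Cucsa.044130) to -1.07 (Cucsa.044160). In leaf, PR3 copies on that scaffold were at 2.02 and 4.77 RPKM (Cucsa.044160) and at 0.79 and 2.13 (Cucsa.044170), with intervals of both ratios that included 1.

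**Figure D5:**
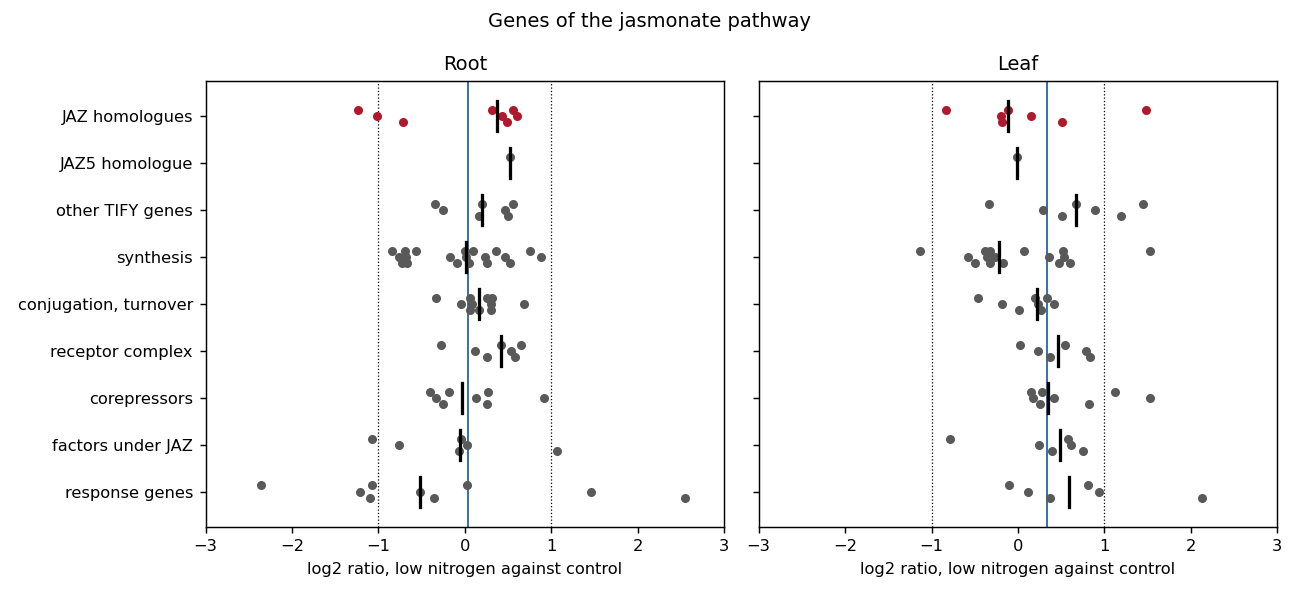
Log2 ratio of low nitrogen to control (horizontal axis, on RPKM + 1) for the compared genes of each jasmonate list (rows) in root and leaf. Black bars are list medians, the blue line is the median of all genes (0.04 in root, 0.33 in leaf) and dotted lines mark the threshold; in root the JAZ homologues (red) split into 3 genes below 0 and 5 above, with a median of 0.37.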

How the data were processed

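The authors deposited 1 table of RPKM values, with 2 decimals, for 4 libraries, and a gene length, an Arabidopsis homologue ID and a symbol per gene. The submitters' processing notes name Bowtie 0.12.9, with no role or settings. No source used here names a genome build or counting program. Members and lists were chosen with earlier results of these data known.

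Ratios were made over the whole table from RPKM as deposited. Members are the rows with a listed homologue ID. From each list, the core genes (COI1, JAR1, NINJA, MYC2, MYC3, MYC4) and up to 3 genes with the largest ratio per organ are named. The 3 PR3 copies and TIFY5B were named after their values were seen. The LOX2 copy abundant in root and the remaining DDE2 copies were also named outside this rule, after their values were seen. Library depth is the value at which RPKM times kilobases is whole within 0.005 RPKM for the most low genes: 34.0% to 35.5% of low genes were whole there, against a median of 4.71% to 4.93% over the depths scanned. Counts of a gene are the smallest that all libraries allow for a length from 100 bases to the deposited one; they are not certain, and the smallest give the widest intervals. Intervals are exact 95% Poisson or conditional binomial ones (SciPy 1.17.1). The ratios and the recovery of depth were tested on simulated data. For the counts, the simulation recorded only whether any were returned. It did not compare them with those simulated, so it does not bear on their accuracy. The closing section gives 8 alternatives set in the design and 1 added after the data were seen; the rescaled intervals and the list counts relative to the median of all genes were added then too.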

Additional observations from a re-analysis of the deposited data

Results flagged for a closer look

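As deposited, the log2 ratios of low nitrogen to control of 3 JAZ homologues had opposite signs in root and leaf and lay at least 1 apart; with 1 library per group the difference was not tested. For TIFY9 (scaffold00919) the leaf minus root difference was 2.72. For TIFY9 (scaffold03487) it was 1.17, but the leaf ratio of 0.15 turned negative (-0.27 to -0.18) under median ratio scaling, upper quartile scaling and relative to the median of all genes, so that the signs were no longer opposite and the difference was 0.78 to 0.90. For TIFY5A (scaffold00542) it was -1.50, resting on 1 read in leaf control and none in leaf low nitrogen, with counting intervals that included 1 in both organs. A gap of this size with opposite signs was seen in 16.6% of 14975 genes.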

How the results depend on the processing

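No paired analysis was possible because each group has 1 library and no result comes from a test; leaving out a replicate was not possible for the same reason. As deposited, 0 JAZ homologues were higher and 2 lower in low nitrogen root, 1 and 0 in low nitrogen leaf, 1 and 2 in leaf against root on full nitrogen, 3 and 2 on low nitrogen, and 2 and 1 in the leaf minus root difference. With a pseudocount of 5, 0 were lower in root, against 1.84% of all genes. The difference then counted 1 higher and 0 lower, against 6.56% and 3.27%. With a pseudocount of 0.1, 4 were lower in leaf than root on low nitrogen, against 34% of all genes. Median ratio scaling, upper quartile scaling and ratios relative to the median of all genes (the last added after seeing the data) each gave 1 lower in leaf, TIFY6B (scaffold00999), 2 higher in leaf than root on full nitrogen and 4 on low nitrogen, where TIFY6B (scaffold00399) entered, and 1 higher and 2 lower in the difference. Under these, TIFY9 (scaffold03487) left the difference (0.78 to 0.90) and TIFY10B entered it (-1.16 to -1.08). Of all genes, 7.51% to 9.05% were then lower in leaf. Higher in leaf than root were 23.8% to 26.5% on full nitrogen and 23.1% to 24.7% on low nitrogen. In the difference 9.17% to 10.5% were higher and 10.6% to 11.9% lower. With equal sums, 1 was lower in root, against 4.18% of all genes, and 4 lower in leaf than root on low nitrogen, against 34.3%. With genes of 1 homologue summed, which leaves 5 members, 1 was lower in root, against 3.5% overall in that setting, and 0 higher in leaf, against 12.3%. On low nitrogen 2 were higher in leaf than root, against 18.9%. The difference counted 1 higher and 0 lower, against 15.3% and 5.49%. No count moved with other filters on low values, and no called value changed sign under any alternative run; values under the threshold did, among them TIFY9 (scaffold03487) in leaf. Depth limits TIFY5A (scaffold00542) in leaf, which rests on 1 read.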

Other observations

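Of 7 TIFY genes outside the JAZ group that were compared, none passed the threshold in root (0 of 7), against 10.5% of all genes. In leaf 0 did so on the low side and 2 on the high side, where 13.6% of all genes were higher. Relative to the leaf median of all genes 1 of 7 was higher, TIFY4B at 1.12, against 5.91% of all genes, while TIFY8 (scaffold02995) was at 0.86. TIFY4B (PPD2, AT4G14720), the homologue of a regulator of leaf lamina size, was at 6.74 (control) and 7.65 RPKM (low nitrogen) in root, and 3.95 and 12.5 RPKM in leaf, a leaf ratio of 3.16 (interval 2.22 to 4.58). TIFY8 (AT4G32570, scaffold02995) was at 10.3, 14.9, 4.43 and 11.4 RPKM in the same order, and its second copy (scaffold01144) at 6.82 and 10.5 RPKM in root. ZML1 (AT3G21175, scaffold03588) was at 2.92 and 4.41 RPKM in root and 1.33 and 3.32 in leaf. The list median in leaf was 0.67, or 0.34 above that of all genes.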
